A study of Mus musculus with 2 samples.

Results

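The neurexins, neuroligins and teneurins are neuronal adhesion proteins that span the cell membrane and meet partners on the facing cell. The 9 genes described here are Nrxn2, Nrxn3, Nlgn1, Nlgn2, Nlgn3 and Tenm1 to Tenm4, out of 43346 genes in the expression tables. They were chosen by family name, from identifiers matched to the GENCODE mouse annotation, and no measured value entered the choice. The study measured total RNA longer than 200 nt from midbrain of B6NCrl mouse embryos at 13.5 days, in 2 libraries of 1 group numbered as biological replicates 1 and 2. Each library was made from 10 ng of RNA with spike-in RNA added, from healthy tissue that pooled male and female embryos. The libraries carry separate biosample entries and a single donor entry, so the SDs below cover only the spread between these samples. There was no treatment, mutant allele, second age or second tissue, so the comparisons are between genes, between transcripts of a gene, and between the libraries.

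Neurexins are presynaptic receptors whose genes carry a distal promoter for a long alpha form and an internal promoter for a short beta form. Neuroligins are postsynaptic acetylcholinesterase-like proteins that bind neurexins, and a short insert of the neuroligin at splice site A and of the neurexin at splice site 4 tunes that binding. Teneurins are very large proteins that bind each other and the adhesion receptors called latrophilins. At this age the midbrain holds dividing progenitors and young neurons that are extending axons, before most synapses form.

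The short inserts on which these adhesion systems turn are shown here because the transcript values below separate RNAs with and without them. Each line gives mRNA 5′ to 3′ from the GENCODE M21 transcripts on GRCm38, with the alternative coding bases in capitals and the neighbouring coding bases in lower case. The first is the exon of splice site 4 of Nrxn3, at chr12:90199147-90199236 (plus strand), with 90 bases, or 30 residues.
Nrxn3, splice site 4: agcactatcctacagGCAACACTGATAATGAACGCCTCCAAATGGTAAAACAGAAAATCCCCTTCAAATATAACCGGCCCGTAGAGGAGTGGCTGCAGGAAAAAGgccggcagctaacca

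Splice site A of the neuroligins is served by 1 exon of 60 bases in Nlgn1, at chr3:25920178-25920237 (minus strand), and by a pair of them in Nlgn3, at chrX:101303072-101303131 and chrX:101307075-101307134 (plus strand). The Nlgn1 exon shares 43 of 60 bases (71.7%) with the second Nlgn3 exon and 16 of 60 (26.7%) with the first. Nlgn1 also has a 27-base extension of a coding exon, splice site B, at chr3:25439865-25439891.
Nlgn1, splice site A: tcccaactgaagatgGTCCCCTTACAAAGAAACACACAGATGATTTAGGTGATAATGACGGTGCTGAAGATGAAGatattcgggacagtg
Nlgn1, splice site B: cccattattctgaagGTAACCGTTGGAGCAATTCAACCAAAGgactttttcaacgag
Nlgn3, first exon of splice site A: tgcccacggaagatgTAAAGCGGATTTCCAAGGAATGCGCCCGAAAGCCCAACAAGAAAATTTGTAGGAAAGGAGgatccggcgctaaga
Nlgn3, second exon of splice site A: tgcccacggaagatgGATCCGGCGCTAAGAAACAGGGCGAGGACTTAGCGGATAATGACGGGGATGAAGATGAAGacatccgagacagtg

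The teneurins carry an exon of 27 bases (9 residues) among the EGF-like repeats and one of 21 bases (7 residues) in the beta-propeller, a domain of their adhesive head. The 21-base exons lie at chrX:42648394-42648414 (Tenm1, minus strand), chr8:48287133-48287153 (Tenm3, minus strand) and chr7:96854717-96854737 (Tenm4, plus strand). The 27-base exons lie at chr8:48313238-48313264 (Tenm3) and chr7:96805105-96805131 (Tenm4). Tenm3 and Tenm4 share 20 of 21 bases in the former and 24 of 27 in the latter, and the Tenm1 exon shares 16 of 21 bases with Tenm3 and 17 of 21 with Tenm4. No such exon of Tenm2 was found by the rule used here.
Tenm1, 21-base exon: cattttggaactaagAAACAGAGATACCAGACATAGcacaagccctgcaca
Tenm3, 21-base exon: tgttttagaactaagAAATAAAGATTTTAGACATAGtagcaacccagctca
Tenm4, 21-base exon: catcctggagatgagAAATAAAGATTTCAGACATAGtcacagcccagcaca
Tenm3, 27-base exon: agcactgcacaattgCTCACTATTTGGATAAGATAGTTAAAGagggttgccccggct
Tenm4, 27-base exon: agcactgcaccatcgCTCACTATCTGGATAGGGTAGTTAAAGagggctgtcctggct

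The libraries held 31436613 and 40215359 expected reads on genes in replicates 1 and 2. All 7 midbrain markers were detected, led by Otx2 at 110.8 TPM with En2 lowest at 1.66 TPM, and 0 of 8 Hox genes of more posterior tissue were, the highest being Hoxb2 at 0.19 TPM. All 10 neuron markers and all 10 progenitor markers were detected. The libraries differed in regional markers: 5 of 7 dopaminergic markers and 4 of 6 cortex markers were at least 2-fold higher in replicate 2, and 1 of 6 thalamus and pretectum markers, Gbx2, was at least 2-fold higher in replicate 1. The summed dopaminergic marker level was 90.6 and 160.8 TPM in replicates 1 and 2, the cortex sum 35.8 and 53.9 TPM, and the thalamus and pretectum sum 922.5 and 675.5 TPM. Meningeal markers summed to 278.1 and 340.8 TPM, and 3 of 6 astrocyte markers were detected, from Gja1 at 64.8 TPM to Gfap, listed at 0 and 0.01 TPM. In bulk tissue, fewer cells of a type and less RNA per cell cannot be told apart.

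All 9 genes were detected, which means a TPM (a level corrected for transcript length and library total) of at least 1 in both libraries. Over all genes the share detected was 34.3%, and over protein-coding genes 60.2%. Their levels ran from 14.1 to 62.8 TPM, a 4.46-fold span, and placed them between the 45.9 and 81.2 percentiles of detected genes. Expected reads per member ran from 809 (Nrxn2, replicate 1) to 7719 (Nlgn3, replicate 2). Levels below are means ± SD with n = 2, and all 4 teneurins summed to 120.8 and 124.2 TPM, the 3 neuroligins to 74.7 and 74.6 TPM and the 2 neurexins to 74.7 and 86.7 TPM in replicates 1 and 2.

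Among the presynaptic receptors, Nrxn3 (chr12:88722876-90334935, plus strand, GRCm38) was the highest of all 9 genes, at 58.0 TPM in replicate 1 and 67.6 TPM in replicate 2 (62.8 ± 6.77, SD, n = 2). Nrxn2 (chr19:6418731-6544169, plus strand) stood at 16.7 and 19.1 TPM (17.9 ± 1.73). Nrxn3 exceeded Nrxn2 by 1.79 on the log2(TPM + 0.1) scale in replicate 1 and 1.82 in replicate 2, a 3.49-fold difference with a 95% interval of 2.91 to 4.19. This interval, like the others between genes, comes from a limma fit that estimates the spread between libraries across 15446 genes, and 2 genes are called apart where it leaves out no difference.

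Among the postsynaptic partners, Nlgn3 (chrX:101299168-101325963, plus strand) led with 44.3 and 43.5 TPM in replicates 1 and 2 (43.9 ± 0.559). Nlgn2 (chr11:69823122-69837784, minus strand), the neuroligin of inhibitory synapses, had 16.8 and 16.7 TPM (16.7 ± 0.0283). Nlgn1 (chr3:25426215-26332460, minus strand), the neuroligin of excitatory synapses, had 13.7 and 14.4 TPM (14.1 ± 0.481). The libraries lay close together for all 3 genes and did not overlap between them. Nlgn3 was 2.61-fold above Nlgn2 (2.24 to 3.04) and 3.10-fold above Nlgn1 (2.65 to 3.63), while Nlgn2 was 1.19-fold above Nlgn1 with an interval of 1.01 to 1.40.

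The teneurin genes lie at chrX:42527866-43429126 (Tenm1, minus strand), chr11:36006656-37235964 (Tenm2, minus strand), chr8:48227682-48843951 (Tenm3, minus strand) and chr7:96171246-96911093 (Tenm4, plus strand). Tenm2 had 41.1 and 36.9 TPM (39.0 ± 2.97), Tenm4 34.0 and 36.6 TPM (35.3 ± 1.83) and Tenm3 30.7 and 36.7 TPM (33.7 ± 4.23). Tenm3 and Tenm4 overlapped between the libraries and Tenm2 lay just above both, but none of these 3 was apart from another: the intervals of the log2 difference were -0.09 to 0.37 for Tenm2 over Tenm4, -0.05 to 0.47 for Tenm2 over Tenm3 and -0.18 to 0.33 for Tenm4 over Tenm3. Tenm1 was lower, at 14.99 and 14.1 TPM (14.5 ± 0.665). Tenm2 exceeded it 2.67-fold (2.26 to 3.16), Tenm4 2.42-fold (2.05 to 2.85) and Tenm3 2.30-fold (1.92 to 2.77).

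**Figure D1:**
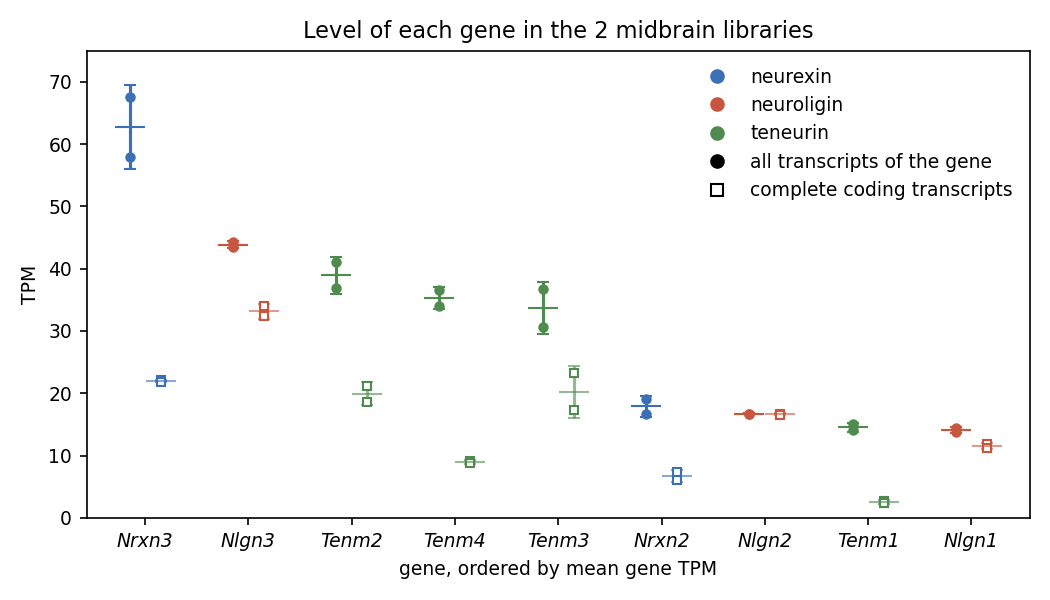
Level in TPM of the 9 genes in midbrain at 13.5 days, ordered by mean gene TPM, with filled circles for the gene in each library and open squares for its complete coding transcripts; dashes are means and bars are SDs (n = 2). Nrxn3 is highest by all transcripts (58.0 and 67.6 TPM) and Nlgn3 by complete coding transcripts (34.0 and 32.3 TPM).

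From highest to lowest the order was Nrxn3, Nlgn3, Tenm2, Tenm4, Tenm3, Nrxn2, Nlgn2, Tenm1 and Nlgn1. Of the 36 pairs of genes 29 were apart, but only 2 of the 8 neighbours in the order were: Nrxn3 over Nlgn3, 1.43-fold (1.21 to 1.68), and Tenm3 over Nrxn2, 1.87-fold (1.55 to 2.27). The order thus holds an upper gene, a group of 4 genes from Nlgn3 to Tenm3, and a group of 4 from Nrxn2 to Nlgn1 whose neighbours did not differ beyond their spread. Within the middle group Nlgn3 was still apart from Tenm4 (1.24-fold, 1.07 to 1.44) and from Tenm3 (1.31-fold, 1.10 to 1.55). Within the lower group Nrxn2 was apart from Tenm1 (1.23-fold, 1.03 to 1.47) and Nlgn1 (1.27-fold, 1.06 to 1.52), as Nlgn2 was from Nlgn1.

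A gene's TPM sums transcripts of different kinds, and much of the RNA assigned to these genes fell on transcripts without a complete coding sequence. On average over the libraries, complete coding transcripts held 99.5% of the TPM of Nlgn2, 82.1% of Nlgn1 and 75.6% of Nlgn3. They held 59.7% of Tenm3, 51.2% of Tenm2, 25.5% of Tenm4 and 17.3% of Tenm1, and 37.4% of Nrxn2 and 35.2% of Nrxn3. The median over the 9 genes was 51.2%, against 85.1% over 9469 detected protein-coding genes with at least 2 transcripts, and 4 of the 9 (44.4%) lay below 50% against 17.8% of those genes. By expected reads, which are not divided by length, the share was 58.6% to 99.9% with a median of 79.3%, against 94.4% for those genes, and 0 of 9 lay below 50% against 8.42%. Nlgn2 and Nlgn3, which span 14.7 and 26.8 kb of the genome, are compact genes, whereas the other 7 span 125 kb (Nrxn2) to 1612 kb (Nrxn3).

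The transcript with the largest share of the gene's TPM was the same in both libraries for 9 of 9 genes, and it was a complete coding one for 5 of them (55.6%) against 86.2% of those detected genes in replicate 1. The exceptions were Nrxn3-204, annotated as a retained intron (42.5% and 39.7% of the gene in replicates 1 and 2), and Nrxn2-213, a processed transcript of 576 bases (42.6% and 36.2%). The others were Tenm1-204, a processed transcript of 1143 bases (63.9% and 64.5%), and Tenm4-209, a partial coding model of 708 bases (48.0% and 51.0%). By expected reads the leading transcript was a complete coding one for 9 of 9 genes. No share over all genes is given for this count or for the match between the libraries, so neither is read as particular to these genes. Tenm2-202, for instance, held 51.7% and 50.7% of the gene's TPM but 92.9% and 92.2% of its reads. No source used here says whether reads were assigned by strand, and reads of the antisense genes over Nrxn2, Nrxn3, Nlgn1, Tenm1, Tenm3 and Tenm4 cannot then be told apart from theirs. The most abundant of those were Gm19744 over Tenm3, with 156.3 and 301.0 expected reads, and Sh2d1a over Tenm1, with 130.7 and 178.8.

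**Figure D2:**
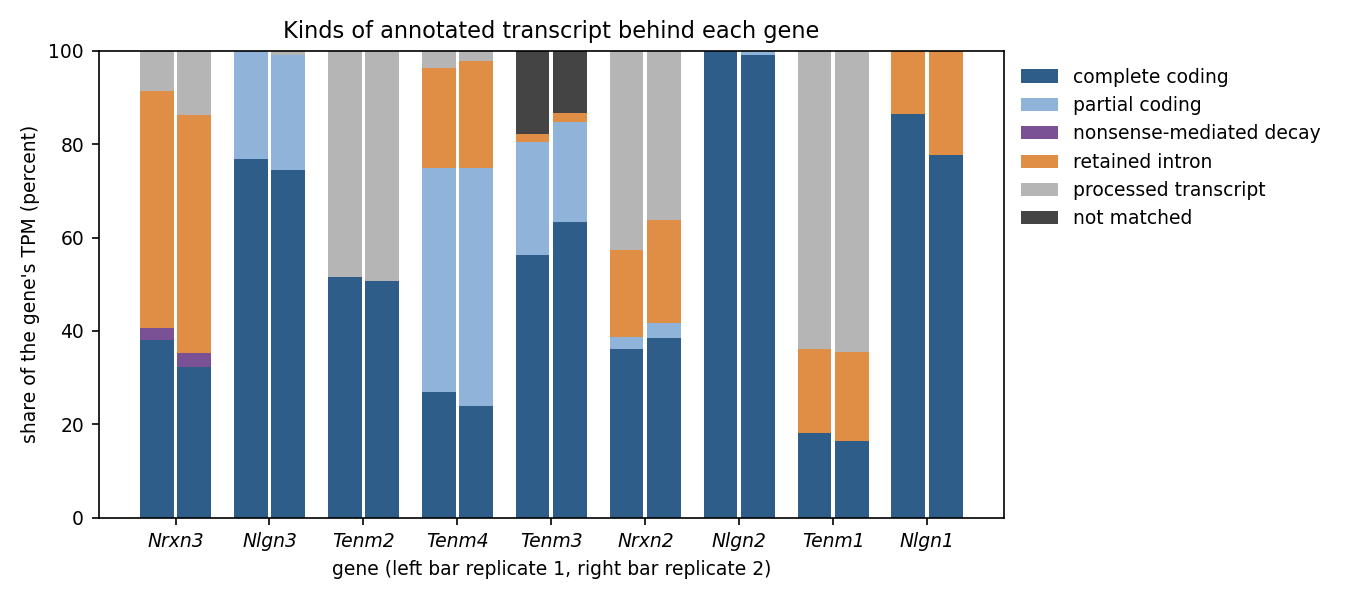
Share of each gene's TPM (percent) by kind of annotated transcript, with the left bar for replicate 1 and the right bar for replicate 2. Complete coding transcripts make up 100% and 99.04% of Nlgn2 but 18.1% and 16.4% of Tenm1.

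Counted over complete coding transcripts alone, a choice made after seeing the data, the order changed. Nlgn3 became the highest at 34.0 and 32.3 TPM (33.2 ± 1.19), above Nrxn3 at 22.1 and 21.9 TPM (22.0 ± 0.170) by 1.51-fold (1.31 to 1.74), the reverse of the order by gene TPM. Tenm3 followed at 17.3 and 23.2 TPM (20.2 ± 4.20), Tenm2 at 21.2 and 18.7 TPM (19.9 ± 1.80) and Nlgn2 at 16.8 and 16.5 TPM (16.6 ± 0.148). Nlgn1 had 11.9 and 11.2 TPM (11.5 ± 0.495), Tenm4 9.16 and 8.78 TPM (8.97 ± 0.269) and Nrxn2 6.04 and 7.37 TPM (6.71 ± 0.940). Tenm1 was lowest at 2.71 and 2.31 TPM (2.51 ± 0.283), and the span from Nlgn3 to Tenm1 widened to 13.2-fold. Tenm3 would have 22.8 and 28.1 TPM, above Nrxn3 in both libraries, if its transcript without a match in the annotation were counted as coding.

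On this count the 3 neuroligins summed to 62.7 and 60.1 TPM, the 4 teneurins to 50.4 and 53.0 TPM and the 2 neurexins to 28.1 and 29.2 TPM, so the postsynaptic family was above the presynaptic pair in both libraries. By gene TPM, the neurexin and neuroligin sums had been alike in replicate 1, and the neurexin sum was the higher in replicate 2. Of the 36 pairs, 7 were apart in the opposite direction to the gene TPM order, 3 of them involving Tenm4, which lay below Tenm3 (2.22-fold), Nlgn2 (1.85-fold) and Nlgn1 (1.28-fold).

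For the neurexins the annotated start separates a long (alpha) side from short (beta) transcripts, whose start lies 79.1 kb into Nrxn2 and 1018 kb into Nrxn3 from the long start. The long side takes every transcript that starts anywhere upstream of the short start, so it is not a share of the distal promoter. Over all annotated transcripts, the long side held 37.7% and 45.1% of Nrxn2 TPM in replicates 1 and 2 and the short side 19.7% and 18.7%. The remainder of Nrxn2, 42.6% and 36.2%, was the single processed transcript that starts further downstream. In Nrxn3 the long side held 87.3% and 90.0% and the short side 12.7% and 10.0%. Much of the long side consisted of transcripts that end before the short start, 21.2% and 25.3% of Nrxn2 TPM and 59.3% and 64.7% of Nrxn3 TPM.

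Among the transcripts annotated as protein-coding, Nrxn2 was divided nearly evenly between long (48.9% and 55.2%) and short forms (51.1% and 44.8%), and the side that led differed between the libraries. In Nrxn3 the long form led in both, at 66.7% and 68.9%. Over all annotated transcripts, the ratio of the long ones that reach the 3′ part of the gene to the short ones was 0.836 and 1.06 in Nrxn2. It was 2.21 and 2.51 in Nrxn3, where the long side then includes 2 transcripts annotated for nonsense-mediated decay. Single transcripts carried these values: the short form of Nrxn2 was almost all Nrxn2-202, at 3.29 and 3.54 TPM, and the long form of Nrxn3 almost all Nrxn3-205, at 14.1 and 14.4 TPM. The deposited interval of the latter, whose confidence level is not given, was 12.8 to 14.4 TPM in replicate 1 and 13.3 to 14.7 TPM in replicate 2.

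The exon of splice site 4 shown above was held by most of the protein-coding Nrxn3 TPM that spans the site, a share partly set by the annotated models. Among protein-coding transcripts that either hold or skip it, those with the exon took 85.9% and 87.3% of the TPM. Over all annotated transcripts those with the exon had 20.3 and 20.8 TPM, of 58.0 and 67.6 TPM for the gene. Among protein-coding transcripts, skipping rests on 1 short transcript, Nrxn3-203, at 3.11 and 2.78 TPM with deposited intervals of 1.59 to 4.61 and 1.41 to 4.10 TPM. All 3 long protein-coding transcripts hold the exon, so long protein-coding forms without it could not be counted. Of the short forms, Nrxn3-202 with the exon had 4.24 and 4.01 TPM, and its deposited intervals overlapped those of Nrxn3-203. Of the 5 cassette forms of Nrxn2 that lie upstream of the short start, 4 varied more between the libraries. The 24-base form was in 43.8% and 62.9% of the TPM and the 45-base form in 24.2% and 32.2%. These forms are the same exon with different ends, and each share leaves out the other form. The 72-base exon was in 100% and 84.4%, and the 27-base exon in 100% and 81.8%. Both of the latter shifts came from a single transcript that skips them, Nrxn2-204, at 0 and 0.69 TPM. It also holds the 24-base form, so these shifts are not separate. The long transcripts of Nrxn2 behind these shares had at most 1.67 TPM each.

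A second coding exon of Nrxn3, of 27 bases at chr12:89517906-89517932, was in 4.54% and 4.71% of the TPM. Khdrbs1, Khdrbs2 and Khdrbs3 encode the SAM68 family of RNA-binding proteins, known to promote skipping at splice site 4, and all were detected, at 144.9 ± 3.33, 36.4 ± 3.63 and 14.6 ± 1.06 TPM.

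In the neuroligins, the splice site A exon of Nlgn1 was in 52.4% and 51.7% of the TPM, close to even in both libraries. This split rests on the correction for length, since the leading transcripts with and without the exon are 11807 and 3013 bases long. Their expected reads were 1461 and 331 in replicate 1, and 1810 and 421 in replicate 2. The transcripts that carried the exon, led by Nlgn1-205 with 843 residues, also carried the 27 bases of splice site B. The ones that skipped it, led by Nlgn1-203 with 814 residues, lacked both, so the annotation does not separate the sites. The deposited intervals were 5.63 to 6.37 TPM and 5.25 to 5.90 TPM for Nlgn1-205 in replicates 1 and 2, and 4.34 to 6.27 and 4.22 to 5.93 TPM for Nlgn1-203. In Nlgn3 the exons of splice site A differed: the first was in 4.20% and 8.35% of the TPM and the second in 76.9% and 75.1%. All of the skipping of the second exon came from Nlgn3-203, a partial coding model of 1852 bases, and every complete coding transcript of Nlgn3 held the exon. The corresponding exon of Nlgn2, of 51 bases at chr11:69830563-69830613, was in 100% and 99.04%.

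By estimated TPM, the short teneurin exons were mostly skipped in Tenm3 and Tenm4, while the Tenm1 estimate had no skipping but wide intervals. In Tenm4 the 27-base and 21-base exons are carried by the same transcripts and both were in 29.8% and 33.6% of the TPM. In Tenm3 both were in 12.5% and 23.3%, which compares Tenm3-201 with both exons (1.53 and 4.16 TPM) with Tenm3-206 with neither (10.7 and 13.7 TPM). A further Tenm3 transcript of 7827 bases, with 5.49 and 4.85 TPM (17.9% and 13.2% of the gene), had no match in the annotation and is in neither group. The deposited intervals of Tenm3-201 overlapped between the libraries, running up to 4.71 TPM in replicate 1 and from 1.35 to 7.08 TPM in replicate 2. The Tenm1 exon of 21 bases was in 100% of the TPM in both libraries, although the transcripts concerned had only 2.71 and 2.31 TPM in all. The transcript that skips it, Tenm1-202, was estimated at 0 TPM, but its deposited intervals ran up to 1.24 and 1.03 TPM. Those of Tenm1-203, which holds the exon, began at 0.942 and 1.01 TPM, so the share of skipping is uncertain. Tenm4 also has larger cassette exons, of 210 and 99 bases, which were included at 81.9% and 80.9%, and at 88.3% and 85.5%.

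**Figure D3:**
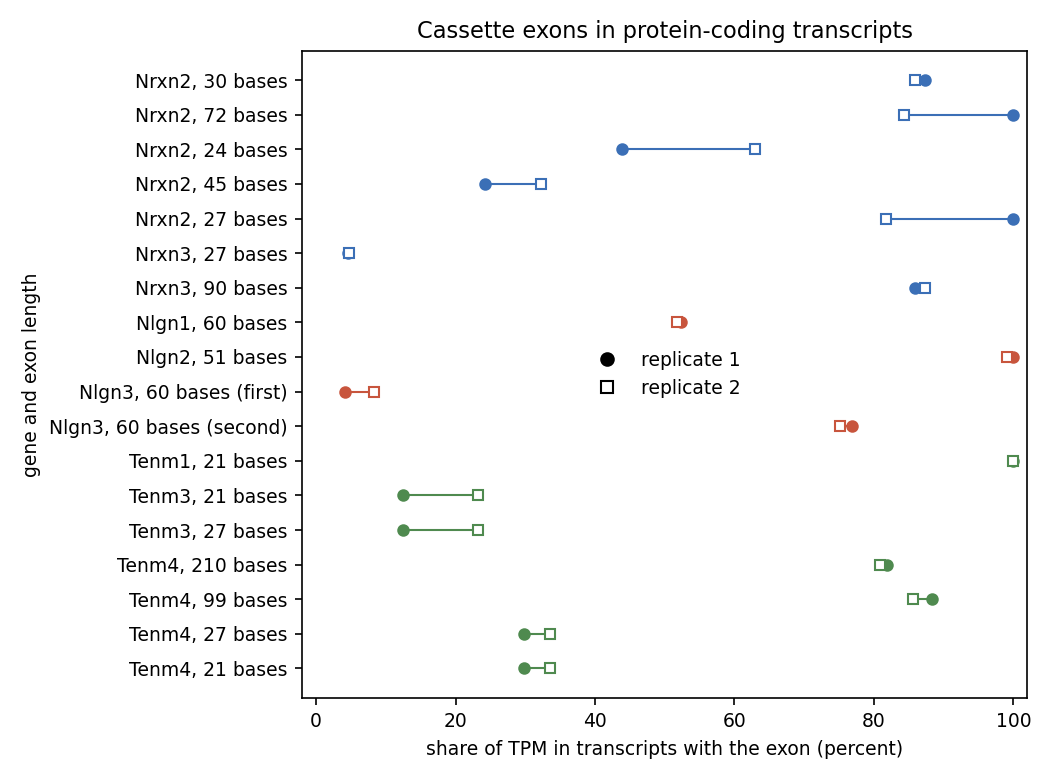
Share of TPM (percent) in protein-coding transcripts with each cassette exon, out of those that hold or skip it, with filled circles for replicate 1 and open squares for replicate 2. Nlgn1 lies near the middle (52.4% and 51.7%), the 21- and 27-base exons of Tenm3 and Tenm4 lie below 34%, and the largest shift between the libraries is that of the 24-base exon of Nrxn2 (43.8% and 62.9%).

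Between the libraries the 9 genes differed about as much as other genes. The median absolute log2 ratio of the 9, replicate 2 to replicate 1 after scaling by TMM, was 0.099. Over the 14366 genes whose counts averaged 50 or more it was 0.101. By 2-fold or more, 0 of 9 differed, against 0.724% of those 14366 genes, a share too small for 9 genes to show a difference. The signed median log2 ratio was 0.03 for the 9 genes against 0.00 for those 14366 genes. Of the 9 genes 6 were higher in replicate 2 and 3 lower, while 50.9% of those 14366 genes were higher in replicate 2. A single library on either side allows no test, and the 95% intervals that follow are exact Clopper-Pearson intervals for counting error alone, on reads that are not independent molecules.

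The largest ratios were those of Tenm3, 1.31 (1.26 to 1.37), and Nrxn2, 1.27 (1.17 to 1.39). They were the 2 of 9 genes that were at least 1.2-fold higher in replicate 2, against 10.5% of genes, and 0 of 9 were at least 1.2-fold higher in replicate 1, against 5.96%, at a fold chosen after seeing the data. As ratios of TPM + 0.1 in place of scaled counts, Tenm3 was at 1.19 and Nrxn2 at 1.15, so neither reached 1.2-fold, and Nrxn3 was at 1.16. The deposited TPM total includes spike-ins, at 5.36% and 9.39% of it in replicates 1 and 2, which lowers these TPM ratios. Nrxn3 had a ratio of 1.14 (1.09 to 1.18) and Tenm2 the lowest, 0.915 (0.880 to 0.953). Over complete coding transcripts, Nrxn3 had nearly the same level in both libraries (22.1 and 21.9 TPM), whereas Tenm3 kept its difference (17.3 and 23.2 TPM). The other 5 genes had ratios of 0.934 to 1.02 with counting intervals that included 1. The part of the regional markers described above in these ratios was not tested.

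**Figure D4:**
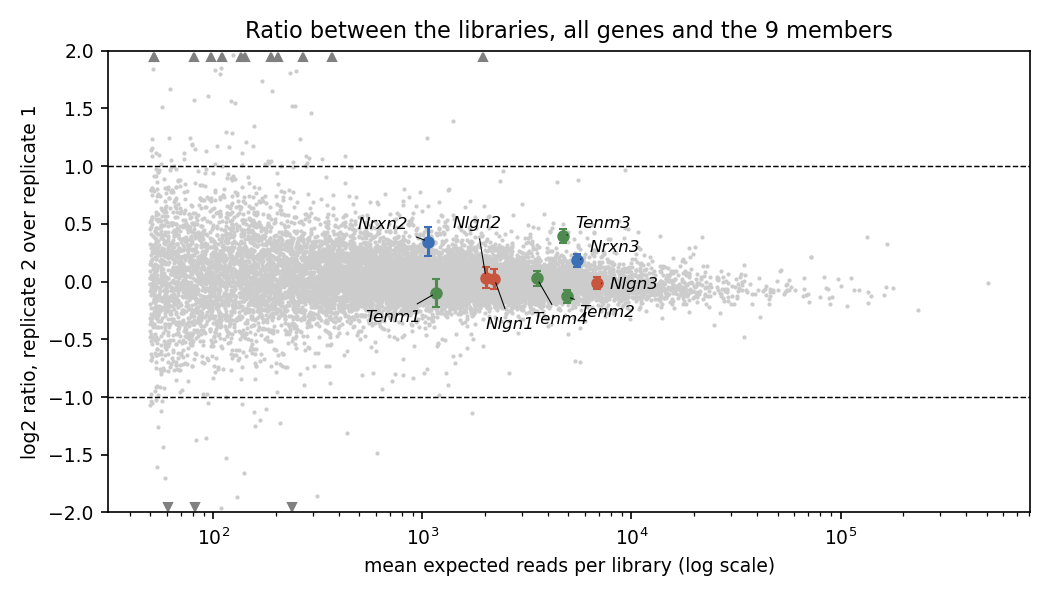
Log2 ratio of replicate 2 to replicate 1 against the mean expected reads (log scale) for 14366 genes in grey and the 9 genes in colour (blue neurexins, red neuroligins, green teneurins; bars are 95% counting intervals). The dashed lines mark 2-fold; 12 genes above and 3 below the axis are drawn as triangles at its edge, and all 9 coloured genes lie between 0.915-fold and 1.31-fold.

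The partners of these receptors were also on in the tissue. Of 80 genes in 8 lists of ligands, inhibitors, receptors, scaffolds, splicing regulators and proteases, 77 were detected, and 0 of the 78 with enough reads differed 2-fold between the libraries (0.724% of all genes). Of the neurexin partners 14 of 17 were detected, with a median of 7.97 TPM, led by the secreted Nxph4, a neurexophilin, at 65.2 ± 5.01 TPM and Cbln2, a cerebellin that bridges neurexins to glutamate receptors of the delta type, at 60.6 ± 11.6 TPM. Clstn3, a calsyntenin, had 56.6 ± 0.820 TPM, and Cbln3 was lowest at 0.20 ± 0.0283 TPM. Both MDGA proteins, which cover neuroligins and keep neurexins off, were detected, Mdga1 at 10.3 ± 1.10 TPM and Mdga2 at 12.5 ± 0.884 TPM.

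The partners of the teneurins were higher, with 6 of 6 detected at a median of 40.2 TPM. The latrophilin Adgrl2 led at 74.9 ± 0.841 TPM, followed by Flrt3, a membrane protein that joins latrophilins and teneurins, at 49.4 ± 1.15 TPM and the latrophilin Adgrl3 at 44.0 ± 2.10 TPM, and Flrt1 was lowest at 7.01 ± 0.255 TPM. By gene TPM, the levels of all 4 teneurins lay within the range of these partners.

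Scaffolds of both sides of the synapse were detected too, 8 of 8 presynaptic and 15 of 15 postsynaptic. Presynaptic ones were led by Lin7c at 150.5 ± 19.8 TPM and Apba2 at 125.0 ± 3.33 TPM, with Cask, a kinase-like protein that binds the neurexin tail, at 38.0 ± 3.20 TPM and Apba1 lowest at 4.44 ± 0.679 TPM. On the postsynaptic side Dlgap4 had 194.0 ± 7.88 TPM, the inhibitory scaffold Gphn 29.6 ± 0.742 TPM, the excitatory scaffold Dlg4 26.3 ± 2.16 TPM and Shank2 the lowest value, 4.83 ± 0.537 TPM. All 4 proteases that shed or cleave such receptors were detected, with Ncstn highest at 101.9 ± 1.57 TPM, Adam10 at 55.4 ± 2.67 TPM and Psen2 lowest at 8.80 ± 0.537 TPM.

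Other families of synapse organizers were on as well, with 25 of 25 detected at a median of 12.9 TPM, below the 33.7 TPM median of the 9 genes. Both medians are of gene TPM. Over complete coding transcripts the middle value of the 9 was 16.6 TPM (Nlgn2), and no such value was taken for the other organizers. The receptor phosphatase Ptprs was highest at 172.6 ± 6.86 TPM, followed by the immunoglobulin-domain protein Cadm1 at 115.5 ± 13.9 TPM and Ptprf at 54.0 ± 3.15 TPM, and Il1rapl2 was lowest at 1.41 ± 0.283 TPM. Ptprs and Cadm1 exceeded the highest of the 9 genes, Nrxn3, in both libraries.

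**Figure D5:**
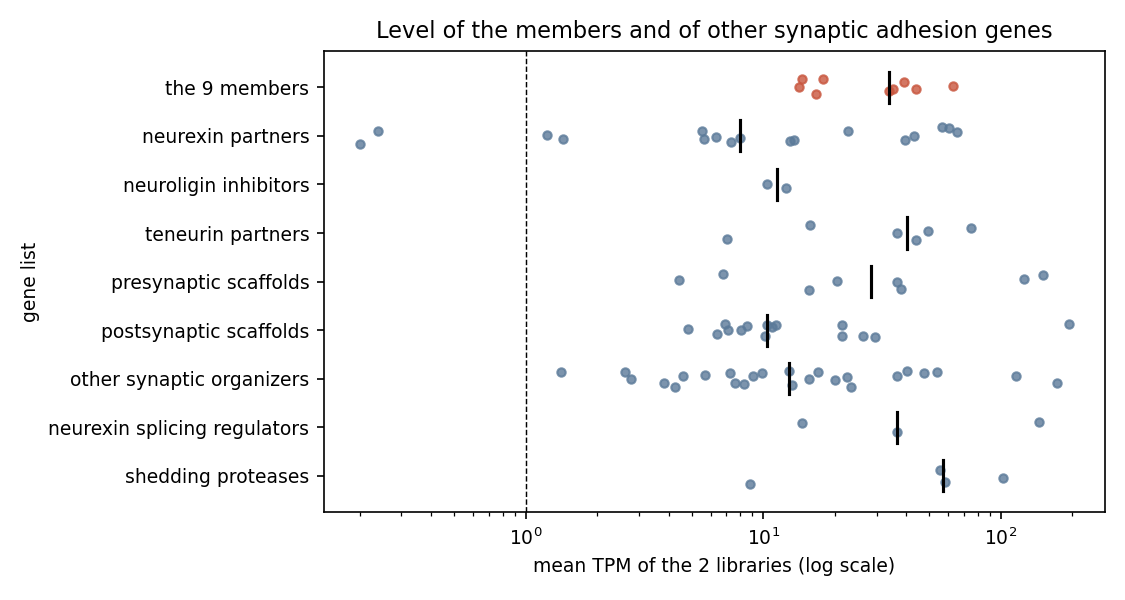
Mean TPM of the 2 libraries (log scale) for the 9 genes in red and for each gene of 8 lists in blue, with a black bar at the median of each row and a dashed line at 1 TPM. The 9 genes lie between 14.1 and 62.8 TPM, and 3 of 17 neurexin partners were not detected in both libraries.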

How the data were processed

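RNA of 2 midbrain libraries was measured. The authors deposited a gene and a transcript table per library on assembly mm10 with GENCODE M4, per the note deposited beside each library. The deposited expected counts are estimated reads that need not be whole, and they were rounded here. The deposited TPM values are corrected for length and scaled to a common total with spike-ins included, while FPKM, also deposited, refers to length and aligned reads, per the file headers. Percent values deposited by the authors give a transcript's share of its gene, and intervals of TPM were also deposited, with no confidence level. Aligner, versions, filters and strand setting: not given in the sources used here.

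Names, positions, transcript kinds and sequences came from GENCODE M21 (GRCm38), with 42462 of 43346 gene identifiers matched and 884 not. One Tenm3 transcript had no match and was counted in no kind. Spike-ins, at 2.22% and 4.06% of 32151659 and 41915240 expected reads, and tRNA entries were left out of scaling. Differences between genes used limma 3.58.1 (R 4.3.3) on log2(TPM + 0.1), over genes with a mean of at least 1 TPM. The interval of a difference sums the variances of both genes as if independent, although both were measured in the same libraries. A fold on that scale understates differences of low genes. The ratio of the libraries used edgeR 4.0.16 TMM factors. No p-value is given, since 1 group of 2 libraries allows no test between conditions. A cassette exon was an internal coding exon of at most 300 bases, a multiple of 3, held by at least 1 protein-coding transcript and skipped by another. Transcript shares are estimates from short reads. The limma intervals and the fold rule were tried on data simulated from the spreads fitted here, with genes independent. That trial cannot test spread shared by genes within a library.

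The members and lists were chosen with earlier results of these data known. By the rule for named genes, all 9 members are named, with the 3 highest and the lowest gene of each pathway list. Some items that the rules take are not reported here. Marker lists are named by their highest and lowest gene. Alternatives were other pseudocounts, TPM and count minimums, folds, DESeq2 1.42.0 size factors, totals, FPKM, each library alone and other sets of transcripts.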

Additional observations from a re-analysis of the deposited data

How the results depend on the processing

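The order of the 9 genes was the same with a pseudocount of 0.01 or 1, with FPKM and without the filter on low values, and 27 to 29 of the 36 pairs were apart. With complete coding transcripts alone, added after seeing the data, 32 pairs were apart. Single neighbours then reversed: Nrxn3 over Nlgn3 to a log2 difference of -0.59, Tenm4 over Tenm3 to -1.15, Nrxn2 over Nlgn2 to -1.31 and Tenm1 over Nlgn1 to -2.16. Leaving out each replicate in turn gave -0.0031 to 0.15 for Tenm4 over Tenm3, -0.037 to 0.12 for Tenm1 over Nlgn1 and -0.0060 to 0.19 for Nrxn2 over Nlgn2, and none of these 3 was apart to begin with. All 9 genes were detected at a minimum of 0.5 or 5 TPM. With TPM taken over genes alone, without spike-ins, every mean level rose, by more than its SD for the neuroligins, Tenm1, Tenm2 and Tenm4. The genes at or past the fold between the libraries went from 104 to 475 at 1.5-fold, 2362 at 1.2-fold (added after seeing the data), 1704 at a fold between these, 538 at a minimum mean count of 10 and 4947 with none, and the members went from 0 to 2 at the lower 2 of these folds. Of 27 ratios of members under other scalings, 3 left the counting interval, all as ratios of TPM + 0.1 (Tenm3 1.19, Nrxn2 1.15 and Tenm4 1.08), and the 27 ran from 0.898 to 1.33.

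With protein-coding transcripts only, the mean long share moved from 41.4% to 52.1% in Nrxn2 and from 88.6% to 67.8% in Nrxn3, and the short share from 19.2% to 47.9% and from 11.4% to 32.2%. By expected reads, the Nrxn2 long share was 66.4% and the short share 26.1%. Over all transcripts, the mean share with the 30-base exon of Nrxn2 moved to 73.0%, with its 72-base exon to 77.6%, and with the 27-base exon of Nrxn3 to 5.64%. Members led by a complete coding transcript were 9 in place of 5 by expected reads, and the leading transcript was then shared by 8 of 9, since Nlgn2 changed between its coding transcripts. These counts by reads have no share over all genes beside them. No paired analysis between conditions was possible because the series has 1 group. Depth limits the low transcripts: the long coding transcripts of Nrxn2 held at most 1.67 TPM each.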
